A study of Mus musculus with 6 samples.

Results

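The neurotrophin system was followed through 7 genes in the hippocampus of venlafaxine-treated mice: Bdnf, Ntf3, Ntrk2, Ntrk3, Ngfr, Sort1 and Vgf. Every probe set whose annotation gave exactly 1 gene symbol, that symbol being one of these 7, was taken. This found 25 of 45037 probe sets on the array, covering 6 of the 7 genes, out of 18193 genes named on the array: 2 for Bdnf, 8 for Ntrk2, 8 for Ntrk3, 3 for Ngfr, 3 for Sort1 and 1 for Vgf. Ntf3 had 0 such probe sets and was not analysed here.

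Neurotrophins are small secreted proteins that keep neurons alive and adjust the strength of their synapses. Brain-derived neurotrophic factor, the product of Bdnf, acts through the receptor tyrosine kinase TrkB (Ntrk2), and neurotrophin 3, the product of Ntf3, mainly through TrkC (Ntrk3). Both receptor genes also make shortened receptors without the kinase, and truncated TrkB is abundant in astrocytes. The p75 receptor (Ngfr) binds all neurotrophins and, together with sortilin (Sort1), their uncleaved precursors. Vgf encodes a secreted peptide precursor that neurotrophins and neuronal activity induce. In the hippocampus BDNF is made by dentate granule and pyramidal neurons, and it is among the molecules most studied in connection with antidepressants.

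The mice were male DBA/2 animals, housed singly, which drank venlafaxine in their water for 30 days. This antidepressant inhibits the reuptake of serotonin and noradrenaline. Control animals received 0 mg, low dose animals 30 mg and high dose animals 100 mg of the drug per kg and day, 10 mice to a group. Each group gave 2 RNA pools, 1 of left and 1 of right hippocampi, and each pool was measured on 1 Affymetrix array, 6 arrays in all. Whether both pools of a group were drawn from the same mice is not stated, so every p-value reflects no more than how these pools vary, possibly for technical reasons.

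Control replicate 1 (right), low dose replicate 1 (right), low dose replicate 2 (left) and high dose replicate 1 (left) were hybridized on the first of 2 dates. Control replicate 2 (left) and high dose replicate 2 (right) followed on the later date. RNA integrity numbers (RIN) were 8.2 and 7.9 for the later high dose and control pools, and 8.5 to 9.1 for the 4 earlier ones. Low dose pools were hybridized on the first date only, so without a date term part of each low dose difference cannot be told apart from the date. With date as a block, the date difference was estimated from the control and high dose pools alone. All 7 CA pyramidal markers and 6 of 7 dentate granule markers lay above the array median on all 6 arrays, while 0 of 5 septal cholinergic markers did so on any. Markers of neighbouring tissue were also above it on all arrays, in 5 of 5 measured genes for striatum, 5 of 6 for neocortex, 6 of 6 for choroid plexus and 6 of 7 for meninges. Their mean log2 level ranged over the arrays from 9.60 to 10.09 for striatum and from 9.94 to 10.50 for choroid plexus. In whole tissue, fewer cells of a type and less RNA per cell cannot be told apart. With 6 arrays, precision is limited by their number.

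Bdnf is read by 2 probe sets whose suffix, by the manufacturer's naming, marks probes shared by alternative transcripts of the same gene. The RefSeq promoter table (GRCm38.p6) lists 7 start sites for Bdnf. The sources used here do not give which of these transcripts each probe set reads. The 120 bases before the third listed start are shown because they hold a form of the cAMP response element, the DNA motif bound by the activity-regulated factor CREB. They lie at chr2:109692316-109692435 on the plus strand, 5′ to 3′, and the capitals mark the motif TCACGTCA.

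Bdnf promoter: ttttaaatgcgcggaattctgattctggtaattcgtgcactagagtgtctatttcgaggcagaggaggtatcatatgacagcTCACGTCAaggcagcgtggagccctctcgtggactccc

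The motif begins 38 bases before the start. A search on both strands for TGACGTCA and for its variant TGACGTGA, which reads TCACGTCA on the other strand, covered windows from 250 bases before to 50 bases after each listed start. One or the other was found in 725 of 32851 windows (2.21%), with TGACGTCA in 588 (1.79%) and the variant in 145 (0.441%), some holding both. Of the 11 windows of Bdnf, Ntf3, Ntrk2 and Ngfr, 1 held a match, the one printed. Ntrk3, Sort1 and Vgf had 0 windows in the promoter table and were not searched. The match is a description of the letters and says nothing about binding in these mice.

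The level of Bdnf differed little between doses. Probe set 1422168_a_at gave log2 levels of 10.38 and 10.16 in controls, 10.21 and 10.36 at the low dose and 10.40 and 10.32 at the high dose. The 3 groups overlapped, and the lowest and the highest of the 6 arrays were 0.24 apart on the log2 scale. High dose pools averaged 10.36 ± 0.0564 and control pools 10.27 ± 0.154 (SD, n = 2 each), a log2 fold change of 0.09 with a 95% interval from -0.14 to 0.33 (limma, adjusted p = 1). At the low dose the log2 fold change was 0.01, with an interval from -0.22 to 0.25. The other probe set, 1422169_a_at, gave 0.05 at the high dose (interval -0.17 to 0.28) and -0.02 at the low dose (-0.25 to 0.20). Over the 6 arrays the 2 probe sets had a Pearson correlation of 0.82, a description over arrays that share labelling and hybridization dates. Within dates, 1422168_a_at differed by 0.02 (first date) and 0.16 (later date) between high dose and control, and 1422169_a_at by -0.08 and 0.19.

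**Figure D1:**
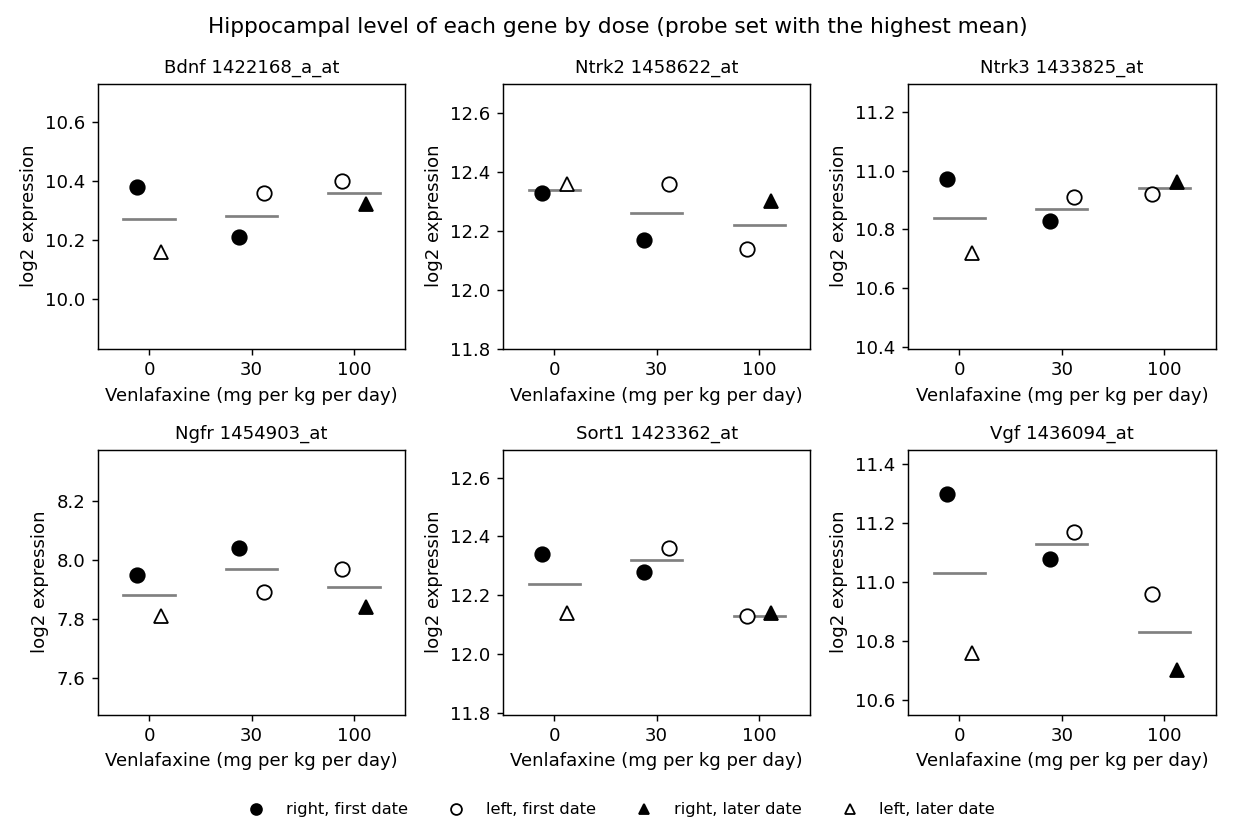
Log2 expression (vertical axes, 0.9 units high in each panel) of the probe set with the highest mean for Bdnf, Ntrk2, Ntrk3, Ngfr, Sort1 and Vgf at 0, 30 and 100 mg venlafaxine per kg per day. Each point is 1 pool, circles are first-date and triangles later-date arrays, filled points right and open points left pools, and grey lines are group means. Bdnf stays between 10.16 and 10.40, and the widest spread is that of Vgf, 0.60.

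Ntrk2, the gene of the BDNF receptor, had 8 probe sets, of which 6 lay above the array median on at least 2 arrays and were tested. Which receptor form each reads is not given in the sources used here. Probe set 1458622_at gave 12.33 and 12.36 in controls, 12.17 and 12.36 at the low dose and 12.14 and 12.30 at the high dose. Both high dose pools lay below both controls, by a mean of 0.12 (log2 fold change -0.12, interval -0.35 to 0.11), while the low dose pools overlapped the other groups. In 1437560_at the levels were 10.23 and 10.16 in the control, 10.25 and 10.31 in the low dose and 9.93 and 10.07 at the high dose. Here the 3 groups did not overlap, with the high dose lowest and the low dose highest. Its log2 fold change was -0.19 for high dose against control (interval -0.40 to 0.02), being -0.30 within the first date and -0.08 within the later.

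The remaining tested Ntrk2 probe sets did not move together. Probe set 1435196_at had 11.05 and 10.95 at the high dose against 11.37 and 11.01 in controls, and 11.22 and 11.42 at the low dose. Probe set 1435305_at had 10.90 and 11.49 at the high dose against 11.17 and 11.37 in controls, and 11.04 and 11.12 at the low dose. The high dose range of 1435305_at thus enclosed all other arrays. In 1446712_at control replicate 1 stood at 9.16, above the 8.77 to 8.93 of the other 5 arrays. For 1420838_at all arrays lay between 10.86 and 11.13. Over the 15 pairs of tested Ntrk2 probe sets, the Pearson correlation across the 6 arrays ran from -0.40 to 0.85 with a median of 0.36. The 2 untested probe sets, 1420837_at and 1444121_at, stayed below the array median on all 6 arrays, at 7.14 to 7.29 and 6.51 to 6.86.

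Ntrk3, the gene of the neurotrophin 3 receptor, had 8 probe sets, 5 of them tested. Probe set 1433825_at gave 10.97 and 10.72 in controls, 10.83 and 10.91 at the low dose and 10.92 and 10.96 at the high dose, so that the control range enclosed all other arrays. Its log2 fold change was 0.09 at the high dose (interval -0.14 to 0.32) and 0.03 at the low dose. In 1447723_at both treated groups lay below the controls: 8.90 and 9.13 at the high dose and 9.04 and 9.11 at the low dose, against 9.15 and 9.24 in controls. The log2 fold changes were -0.18 (interval -0.41 to 0.05) and -0.12 (-0.35 to 0.11). Probe set 1455917_at had -0.17 at the high dose, being -0.38 within the first date and 0.04 within the later. For 1425071_s_at, whose suffix marks probes that can match more than 1 gene, the levels stayed between 8.39 and 8.59, and its log2 fold changes were -0.06 and 0.10. For 1422329_a_at the value was 0.00 at the high dose and -0.07 at the low dose. The untested 1425070_at, 1443970_at and 1426003_at ranged over 7.47 to 7.66, 7.08 to 7.23 and 6.86 to 7.07. Over the 10 pairs of tested Ntrk3 probe sets the correlation ran from -0.42 to 0.70.

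Ngfr lay just above the array median, which was 7.79 to 7.80. Its probe set 1454903_at, the 1 of 3 that was tested, gave 7.95 and 7.81 in controls, 8.04 and 7.89 at the low dose and 7.97 and 7.84 at the high dose. All 3 groups overlapped, and its log2 fold change was 0.03 at the high dose (interval -0.20 to 0.25). Probe sets 1450177_at and 1421241_at were below the array median on all arrays, at 7.16 to 7.38 and 6.93 to 7.12. The cholinergic marker genes, which define the septal neurons that carry p75 in the adult brain, averaged 7.03 to 7.16 per array and were likewise below the array median on all 6.

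Sort1, which encodes the sorting receptor that also carries BDNF into the secretory pathway, was measured by 3 probe sets, all tested. Probe set 1423362_at gave 12.34 and 12.14 in controls, 12.28 and 12.36 at the low dose and 12.13 and 12.14 at the high dose. The high dose pools lay at the bottom, together with the later-date control. The log2 fold change against control was -0.11 at the high dose (interval -0.33 to 0.12) and 0.08 at the low dose (-0.14 to 0.30). For 1450955_s_at these values were -0.03 and 0.11, and for 1423363_at -0.04 and 0.03. In all 3 probe sets both high dose pools lay below both low dose pools, as in 33.5% of all tested probe sets. Both low dose pools were hybridized on the first date only.

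Vgf varied most, together with Ntrk2 1435305_at. Its single probe set, 1436094_at, gave 11.30 and 10.76 in controls, 11.08 and 11.17 at the low dose and 10.96 and 10.70 at the high dose. The 2 later-date arrays were the lowest at 10.76 and 10.70, whatever their dose, and control replicate 1 was the highest. High dose pools averaged 10.83 ± 0.186 and control pools 11.03 ± 0.381 (SD, n = 2 each), a log2 fold change of -0.20 with an interval from -0.55 to 0.15 (limma, adjusted p = 1, and 0.622 once date was a block). Within the first date the difference from control was -0.34 for the high dose pool and -0.22 and -0.13 for the low dose pools. On the later date the high dose difference was -0.06. Paired by side, the left high dose pool (first date) minus the left control (later date) was 0.20. The right high dose pool (later date) minus the right control (first date) was -0.60. Each side pair crossed the dates, so side and date cannot be told apart in these values. The sign of the high dose difference thus depended on how the arrays were paired. The low dose log2 fold change was 0.09 without and -0.11 with the date as a block.

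Neither dose moved a neurotrophin system probe set past the threshold. For high dose against control, 0 of 18 tested probe sets passed (limma, Benjamini-Hochberg adjusted p under 0.05), as did 0 of all 23171 (0%). At an unadjusted p under 0.05 there were 0 of 18 and 553 of 23171 (2.39%). The 18 log2 fold changes ran from -0.20 (Vgf) to 0.09 (Bdnf and Ntrk3 1433825_at) with a median of -0.07, beside a median of -0.03 over all tested probe sets. The 95% intervals reached no lower than -0.55 and no higher than 0.33. For low dose against control 0 of 18 passed, beside 0 of 23171 (0%), with 0 and 595 (2.57%) at an unadjusted p under 0.05. Those log2 fold changes ran from -0.19 to 0.13 with a median of 0.03, the same as over all probe sets. Both ends of that range were Ntrk2 probe sets whose values depended on the date. With date as a block the low dose value was 0.01 for 1435305_at, against -0.19 without, and 0.02 for 1435196_at, against 0.13, whereas 1446712_at had -0.31, against -0.18 (adjusted p = 0.445). Once the date was a block, 122 probe sets passed at the high dose and 48 at the low dose, and 0 of them belonged to these genes.

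**Figure D2:**
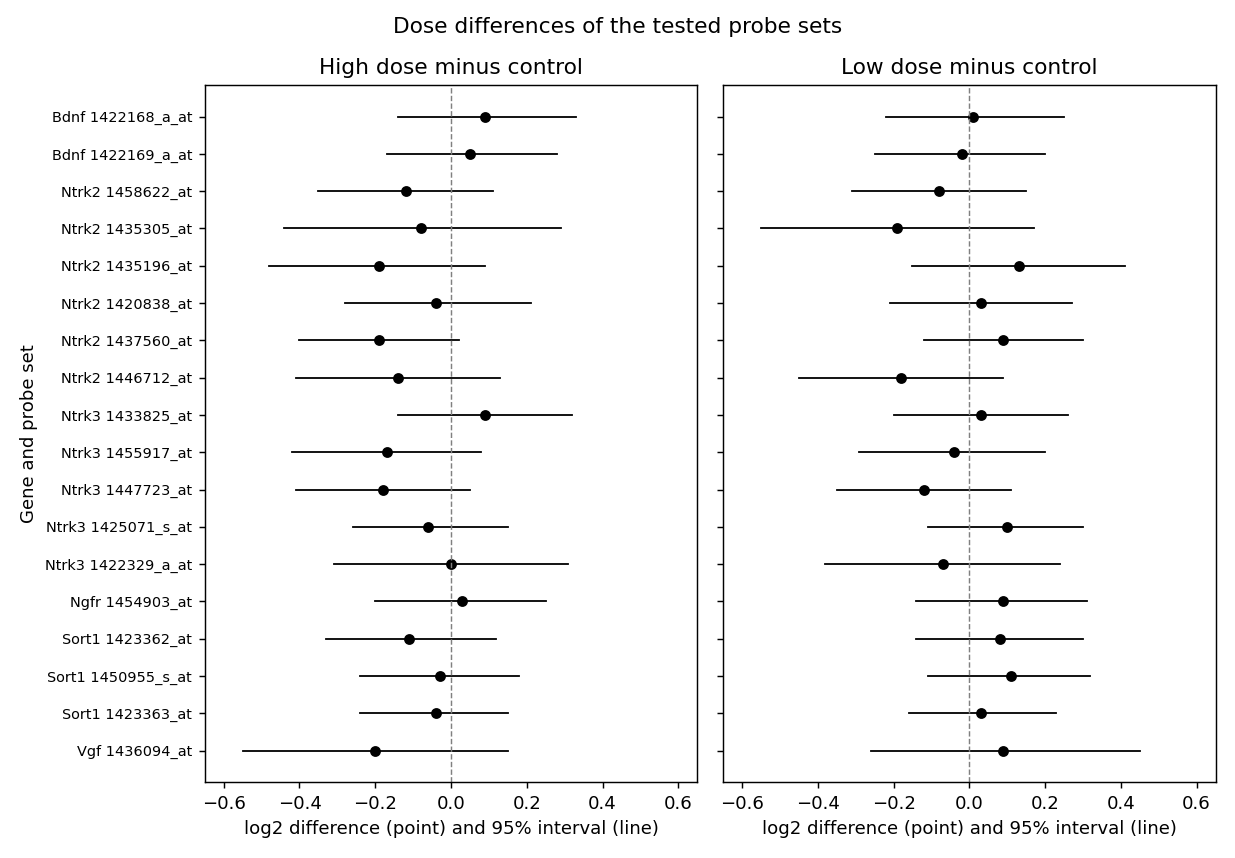
Log2 difference (points) with its 95% interval (lines) for the 18 tested probe sets of Bdnf, Ntrk2, Ntrk3, Ngfr, Sort1 and Vgf, high dose minus control on the left and low dose minus control on the right. Each interval includes 0, and those of Vgf and Ntrk2 1435305_at are the widest.

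Separation of the groups was near its share over the array. Both high dose pools lay below both controls in 4 of 18 probe sets, namely Ntrk2 1458622_at and 1437560_at, Ntrk3 1447723_at and Sort1 1423363_at, against 18.2% of all tested. In 0 of 18 they lay above, against 7.3%. Low dose pools lay above both controls in 2 probe sets, Ntrk2 1437560_at and Ntrk3 1425071_s_at (13.4% of all), and below them in 2, Ntrk2 1435305_at and Ntrk3 1447723_at (12.4% of all). High dose differences were below 0 on both dates in 8 of 18 probe sets and above 0 on both in 2, where the shares over all probe sets were 34.6% and 15.1%. The 2 that were above 0 were Bdnf 1422168_a_at and Ngfr 1454903_at, and the 8 included 4 of the 6 tested Ntrk2 probe sets and Vgf.

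In the direct comparison of the doses more probe sets were separated than against control, in these genes and likewise over all tested probe sets. Both high dose pools lay below both low dose pools in 7 of 18 probe sets, beside 33.5% of all tested. They were Ntrk2 1435196_at and 1437560_at, Ntrk3 1425071_s_at, the 3 of Sort1 and that of Vgf. In 1 probe set, Ntrk3 1433825_at, both high dose pools lay above, beside 5.2% of all. The log2 fold change of high over low dose was -0.32 for Ntrk2 1435196_at (unadjusted p = 0.0287 in limma, adjusted p = 0.921) and -0.28 for Ntrk2 1437560_at (0.0142, adjusted p = 0.921). These were the 2 of 18 with an unadjusted p under 0.05, beside 864 of 23171 (3.73%). It was -0.30 for Vgf and -0.18 for Sort1 1423362_at. Once date was a block, Vgf had -0.10, ranging from -0.43 to 0.12 over all settings run, and Ntrk2 1435196_at had -0.21, while Ntrk2 1437560_at had -0.29 and Sort1 1423362_at -0.14. No probe set passed after adjustment, in these genes or in all (0%), and with the date as a block 9 passed, 0 of them here. Over all probe sets 72.5% had a value below 0, and the median was -0.06, the same as in these 18. Oligodendrocyte markers, 6 measured of 7, averaged 12.12 and 11.84 at the high dose and 12.25 and 12.37 at the low dose. Their part in these differences was not tested.

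Of 82 further genes of neurotrophin processing, reception, signalling and response, 63 were tested and 0 passed at either dose in limma. Over all tested probe sets, 64.6% had a value below 0 at the high dose and 38.3% at the low dose, the background for the counts of each list. At an unadjusted p under 0.05 there were 7 of 63 at the high dose and 6 of 63 at the low dose, all lower than in controls. Over all tested probe sets the shares were 2.39% and 2.57%. Arc, Egr1, Egr2 and Fos were among them at both doses. The others were Fosb, Pik3ca and Spry4 at the high dose and Mef2c and Pcsk5 at the low dose. These genes were listed with earlier results of the same data known, so the counts beside the array-wide shares are a description only. Among other ligands and receptors, 5 of 7 genes had a probe set and 4 were tested. The sortilin relatives Sorcs3 and Sorcs2 had log2 fold changes of -0.12 and 0.02 at the high dose, and the low dose values of Sorl1 and Sorcs2 were 0.06 and 0.04. Of genes that cut or carry neurotrophin precursors, 8 of 10 were tested and 7 had a value below 0 at the high dose. Pcsk5, a proprotein convertase, had -0.20 there and -0.25 at the low dose. Pcsk1, a convertase of neuropeptide precursors including that of Vgf, had -0.15 at the high dose, and Hap1, a transport adaptor of pro-BDNF, 0.12 at the low dose.

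Receptor adaptors and kinases showed the same small values. Of 15 tested adaptors, 11 had a value below 0 at the high dose (median -0.03) and 12 a value above 0 at the low dose (median 0.07), with medians over all probe sets of -0.03 and 0.03. The Ras activator Sos1 had -0.19 and the ubiquitin ligase Nedd4l -0.25 at the high dose. The docking protein Gab1 had 0.19 and the p75 partner Maged1 0.17 at the low dose. Of 15 tested kinase pathway genes, 13 lay below 0 at the high dose (median -0.08), among them Pik3ca, a catalytic subunit of PI3 kinase, and the ribosomal S6 kinase gene Rps6ka3, both at -0.21. At the low dose Pik3ca had -0.14 and Akt1 0.20. Of 9 tested regulators of the Bdnf gene, 8 were below 0 at the high dose (median -0.08). Mef2c, an activity-dependent transcription factor, had -0.22 and -0.26 at the high and low dose, the histone deacetylase gene Hdac5 -0.18 at the high dose and the CREB coactivator gene Crtc1 0.14 at the low dose.

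Among these lists, the lowest values were those of genes known to be induced by BDNF or by neuronal activity. Of 12 tested, 11 lay below 0 at the high dose (median -0.26, against -0.03 over all probe sets) and 10 at the low dose (median -0.16, against 0.03), and 0 passed in either. Both comparisons use the same 2 control arrays. The lists were chosen with earlier results of these data known, so the ranking of this list and its counts are a description only. Once date was a block, 5 of the 12 passed at the high dose (Arc, Egr1, Egr2, Fos and Fosb) and 4 at the low dose (Arc, Egr1, Egr2 and Fos), all lower. Beside them, 122 and 48 of all 23171 tested probe sets passed in the blocked fit. With 1 probe set per gene, Egr2 passed at the high dose and the same 4 genes at the low dose. All 5 are immediate early genes. Of these, Fosb lay near the array median of 7.79 to 7.80. It met the filter through both controls (7.99 and 7.81) and low dose replicate 1 (7.82). Both of its high dose values (7.64 and 7.32) were below the array median, so its call partly reflects the filter. Markers of neighbouring tissue differed between the same groups. Of striatal markers 5 of 5 tested lay below 0 at the high dose (median log2 fold change -0.32) and 4 of 5 at the low dose (-0.09), and of neocortical markers 5 of 5 at both doses (-0.21 and -0.13). Choroid plexus markers lay above 0 in 6 of 6 at both doses (0.19 and 0.24), and meningeal markers in 6 of 6 at the high dose (0.23) and 5 of 6 at the low dose (0.15). In the blocked fit Tac1 of the striatal list (adjusted p = 0.0147) and Tbr1 of the neocortical list (0.0145) passed at the high dose, both lower, as did Fmod of the meningeal list, higher (0.0238). At the low dose Tbr1 (0.0154) and Cux2 (0.0178), both neocortical, passed lower, and Kl (0.0142) and Clic6 (0.0154), both of choroid plexus, higher. Their part in the differences of the induced genes was not tested. Egr2, a zinc finger transcription factor, had 8.01 and 8.01 at the high dose and 7.94 and 7.90 at the low dose, against 8.64 and 9.06 in controls. Its log2 fold changes were -0.84 (limma adjusted p = 0.421, and 1.82e-15 once date was a block) and -0.93 (0.470, and 2.27e-11 in the blocked fit). Fos had -0.59 at the high dose (adjusted p = 1, and 7.62e-07 in the blocked fit) and Egr1 -0.67 at the low dose (0.722, and 0.000139). In the blocked fits all probe sets share 1 estimate of the spread. Of the same list, Npy, Nrn1 and Nptx2 stayed within 0.06 of the controls at both doses. Npas4, itself an activity-dependent factor that acts on the Bdnf promoters, had 0.11 at the high dose.

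**Figure D3:**
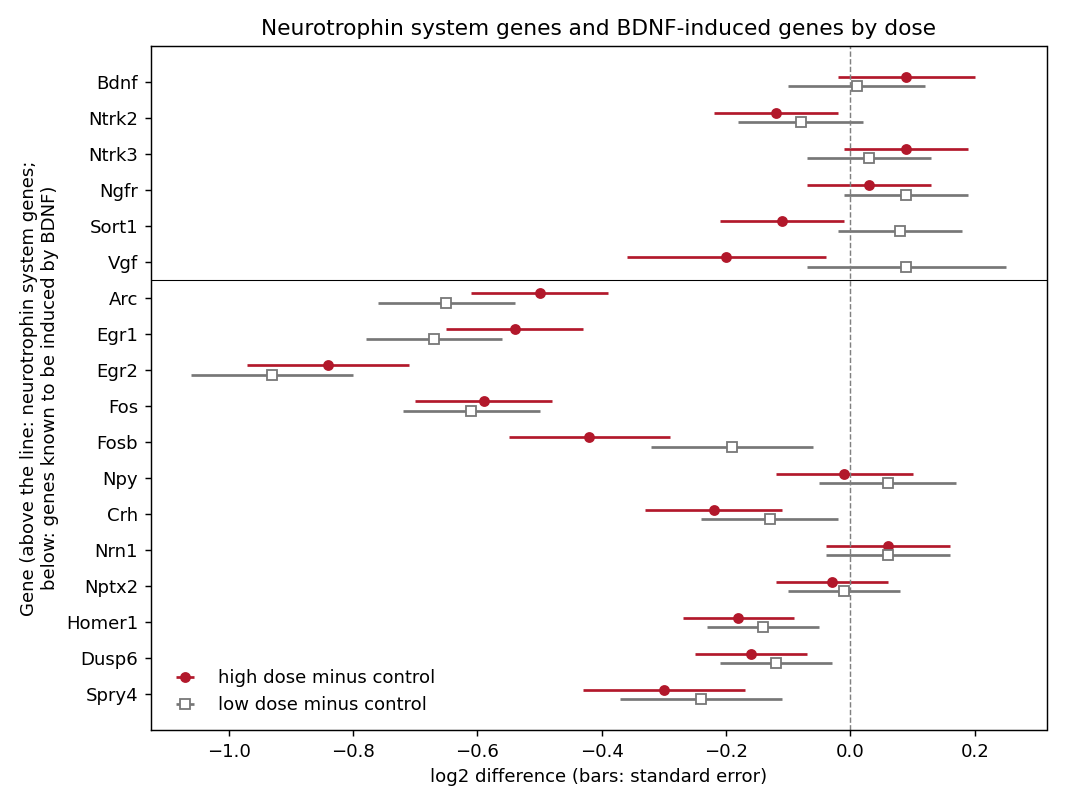
Log2 difference from control (horizontal axis, bars are standard errors) at the high dose (filled circles) and the low dose (open squares), by the probe set with the highest mean of each gene. The 6 neurotrophin system genes above the line lie between -0.20 and 0.09, while Egr2 among the BDNF-induced genes below it reaches -0.93.

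More probe sets passed between hybridization dates than between doses, though the fits were unlike. The dose fits had no date term, while the date fit had a dose term and 1 spread shared by all probe sets. With date as a block, 122 probe sets passed at the high dose and 48 at the low dose against control. The later arrays differed from the first in 3 of 18 probe sets (limma with dose group as a term), beside 11.5% of all tested, 2670 of 23171. At an unadjusted p under 0.05 the shares were 5 of 18 and 23%. Of the 3, 2 were higher (4.28% of all) and 1 lower (7.24% of all). Date moved with RIN, whose part was not tested apart from a fit that included it. Vgf was lower on the later date, at 10.70 in the high dose and 10.76 in the control pool, against 10.96 and 11.30 in the first-date high dose and control pools. The log2 fold change of later over first date was -0.40 (SE 0.09, limma adjusted p = 0.000515). Ntrk2 1435305_at rose to 11.49 and 11.37 in the later high dose and control pools, against 10.90 and 11.17 on the first date, which is 0.40 on the log2 scale (SE 0.09, adjusted p = 0.000579). Ntrk3 1422329_a_at rose to 8.72 and 8.56, against 8.25 and 8.41, with 0.31 (SE 0.09, adjusted p = 0.0118). None of these 3 calls held with RIN as a covariate. The log2 fold change was then smaller for Vgf (-0.23, adjusted p = 1) but larger for Ntrk2 1435305_at (0.68, 0.0903) and Ntrk3 1422329_a_at (0.51, 0.444). Nor did they hold with the replicate number as a block, where the values were -0.49 for Vgf (adjusted p = 0.144), 0.32 for Ntrk2 1435305_at (0.423) and 0.21 for Ntrk3 1422329_a_at (0.591). The Vgf call ended without either control array (log2 fold change -0.26, adjusted p = 0.294). Without either high dose array, the call of Ntrk2 1435305_at ended (0.20, 0.364), as did that of Ntrk3 1422329_a_at (0.15, 0.535).

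**Figure D4:**
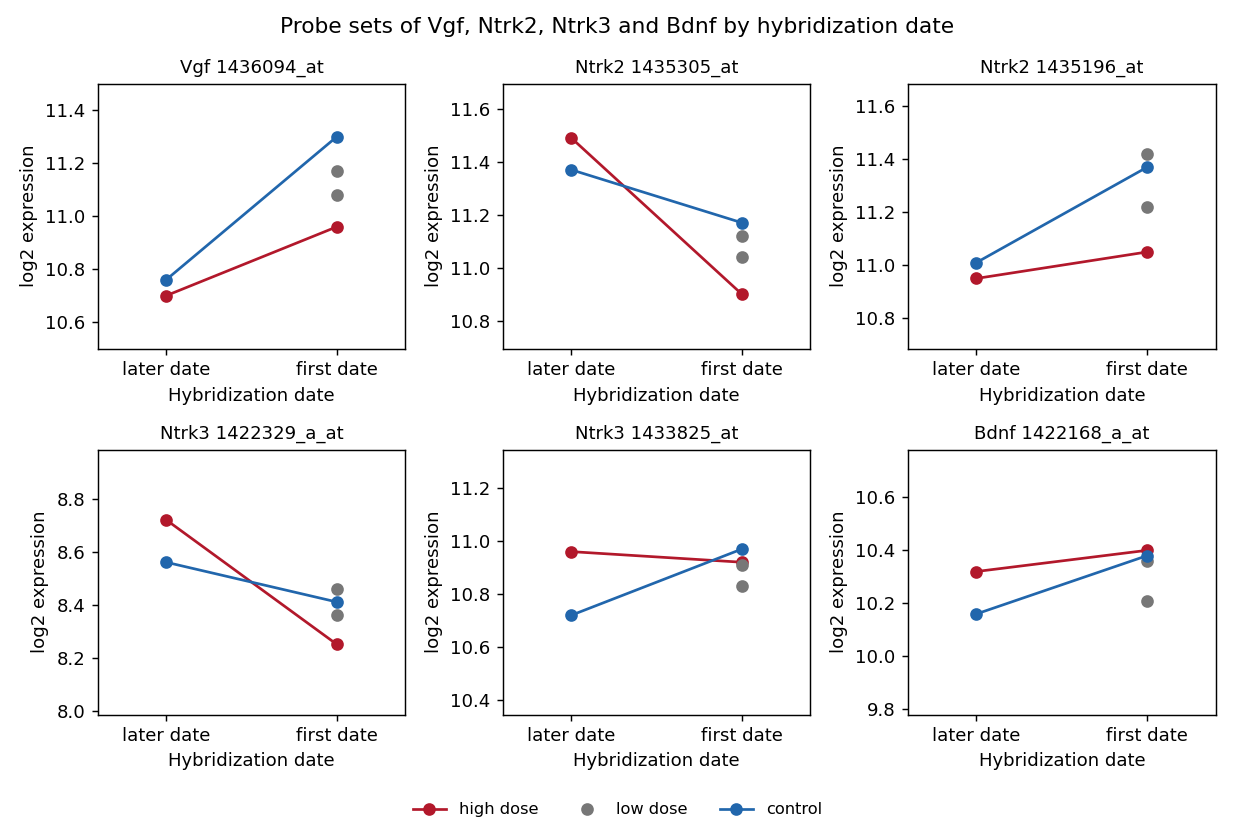
Log2 expression (vertical axes, 1 unit high in each panel) on later-date and first-date arrays for 6 probe sets. Lines join the high dose (red) and the control (blue) arrays of both dates, and grey points are the low dose arrays, hybridized on the first date only. On the later date Vgf and Ntrk2 1435196_at lie lower and Ntrk2 1435305_at and Ntrk3 1422329_a_at higher in both groups, and Ntrk3 1433825_at lies lower in the control group.

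Probe sets of the same receptor gene could differ in opposite directions between dates. The level of 1435305_at minus that of 1435196_at, both of Ntrk2, was 0.54 and 0.36 in the later high dose and control pools and -0.30 to -0.15 in the 4 first-date pools. These probe sets were chosen after their values were seen, so no test is given. Probe set 1435196_at had a log2 fold change of -0.23 between dates (adjusted p = 0.0954), and 1446712_at one of -0.25 (adjusted p = 0.0552). For Ntrk3, 1422329_a_at minus 1433825_at was -2.24 and -2.16 in the later high dose and control pools and -2.67 to -2.45 on the first date. The difference between the Bdnf probe sets, 1422168_a_at minus 1422169_a_at, was 0.83 and 0.86 in the later high dose and control pools and 0.89 to 0.99 on the first date. Bdnf itself had -0.15 (1422168_a_at, adjusted p = 0.349) and -0.05.

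The dates also divided probe sets of other pathway genes. Of the 120 tested, 18 passed, beside the 11.5% of all, 6 higher and 12 lower on the later date. Creb1, the gene of CREB, had 1 probe set at 0.71 (limma adjusted p = 1.46e-11) and another at -0.26 (0.0474), and Cbl, a ubiquitin ligase of activated receptors, 1 at 0.57 (1.12e-07) and another at -0.26 (0.0416). Higher too were probe sets of the kinase gene Pdpk1 (0.67), of Mef2c (0.41 and 0.42) and of the PI3 kinase regulatory subunit gene Pik3r1 (0.35). Lower were those of the TrkB scaffold gene Kidins220 (-0.40), Nedd4l (-0.41 and -0.35), the Ras exchange factor gene Rasgrf1 (-0.44), Map2k5 (-0.37), Rps6ka5 (-0.31), Akt1 (-0.30), Plat (-0.29), Spry4 (-0.27) and Cpe (-0.26). Plat encodes the protease tPA and Cpe a carboxypeptidase of the secretory pathway. For Pdpk1, Mef2c, Kidins220, Rasgrf1, Rps6ka5 and Cpe the probe set with the highest mean was not among those called. Its values were, in that order, 0.07, -0.05, 0.24, 0.00, -0.06 and 0.10.

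Between left and right pools no probe set of these genes passed. Of 18 probe sets 0 did so (limma with dose group as a term), as did 0 of 23171 (0%), and 0 of 18 and 100 of 23171 (0.432%) had an unadjusted p under 0.05. The log2 differences ran from -0.16 in Ntrk3 1455917_at to 0.02. For Bdnf 1422168_a_at the value was 0.00, with an interval from -0.22 to 0.22. The interaction of high dose with date passed in 0 of 18 (lowest adjusted p = 0.486 in limma, 2 at an unadjusted p under 0.05) and in 116 of 23171 (0.501%, with 6.88% at an unadjusted p under 0.05). With these pools that interaction cannot be told apart from a difference between sides.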

How the data were processed

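RNA pools from hippocampi were hybridized to 6 Affymetrix arrays. The deposited values are log2 expression per probe set, which the authors obtained with RMA in R 3.0.1 per the submitters' processing notes; its settings are not given there. Values spanned 6.10 to 15.31, from which the log2 scale was read. Array medians were 7.79 to 7.80 and 95th percentiles 11.46 to 11.65. Of 45101 probe sets, 64 controls were left out. Names came from the platform annotation, with symbols updated by Entrez identifier through a RefSeq gene table for 34741 probe sets. In all 34945 probe sets had 1 symbol, 932 several and 9160 none.

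Testing was limited to the 23171 probe sets that exceeded the array median on 2 or more arrays, each on its own. Tests used limma 3.58.1 in R 4.3.3 (lmFit, eBayes, two-sided, Benjamini-Hochberg over all tested probe sets, threshold 0.05) on the 6 arrays with a coefficient for each dose, and with dose group as a term for date and side. In the date fit the prior on the variance had infinite degrees of freedom, so all probe sets shared 1 spread. On simulated arrays, 3 runs had 200 changed of 23171 probe sets. For high dose against control they recovered 22.3% of simulated 0.5 log2 changes and 78% of 1 log2 changes. The date comparison gave 0% and 50.7%. The simulated noise had the spread of the real arrays around their dose group means, which includes the date differences. The figures for the date comparison are therefore no measure of the date fit on the real arrays. The noise was also drawn independently for each array, while the real control and high dose arrays share date differences. The dose figures may therefore not hold for the real arrays either. No 2 arrays held identical values.

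In the labels, control and high dose arrays with the same replicate number share a hybridization date. Over tested probe sets, replicate 2 minus replicate 1 correlated at 0.594 for the high dose and control groups, at 0.018 for low dose with control and at -0.015 for high with low dose. Members and gene lists were chosen with earlier results of these data known. All probe sets of the members were described. Of the other pathway genes those named had a probe set past the threshold or, per list, were the 2 with the largest moderated statistic at each dose; Arc, Fosb, Npas4, Npy, Nrn1 and Nptx2 and the pairs of probe sets were named after their values were seen. Alternatives were the date, replicate number, side or RIN as terms, quantile normalization, other filters, 1 probe set per gene, trend and robust settings, the first date alone, and each array left out.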

Additional observations from a re-analysis of the deposited data

How the results depend on the processing

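In all alternatives run for high dose against control, low dose against control, the 2 doses and left against right, 0 probe sets of these genes passed. The counts over all probe sets, 0 in each comparison, did depend on the fit. The fits follow in the order high dose against control, low dose against control and high against low dose. With the date as a term (the replicate block for control and high dose) 122, 48 and 9 passed; with the replicate number as a replicate block 17, 99 and 69; with side and date 47, 23 and 8; with RIN 65, 48 and 9; on the first date alone 201, 80 and 31. With side as a term 2 passed in each comparison with control. The stricter filter gave 1 in each of these, 1 probe set per gene gave 1 and 5, and trend and robust settings gave 1 at the high dose. Without 1 array the counts ran from 0 to 95, 0 to 100 and 0 to 696, the highest without high dose replicate 2 for the first (70 without high dose replicate 1), without either high dose array for the second and without high dose replicate 1 for the third. A lone array of a group was then assumed to vary like the others. Left against right gave 7 with the date, or side and date, as terms, 16 with the replicate number, 316 with RIN and 0 to 2 without 1 array.

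Between dates, 2670 probe sets passed, 3 of them of these genes. The counts were 182 and 0 with the replicate block by replicate number, 391 and 0 with RIN, and 818 and 1 with 1 probe set per gene. Quantile normalization gave 5 probe sets of these genes, adding Ntrk2 1446712_at (lower) and Ntrk3 1447723_at (higher). No filter or trend and robust settings gave 4 probe sets, adding Ntrk2 1446712_at. Without 1 array they ran from 1405 to 2229 and from 1 to 3, the lowest without either control array for all probe sets (1690 without either high dose array) and without either high dose array for these genes. The causes were not tested. Signs of differences that did not pass could turn: Vgf at the high dose ran from -0.47 to 0.07 and at the low dose from -0.35 to 0.36. In simulated data few changes of 0.5 log2 between dose groups were recovered, so dose changes of that size could be missed here.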

Other observations

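By the correlation of log2 levels over the 6 arrays, among tested probe sets of other genes that varied at least as much, the most alike were Gramd1c (Pearson r = 0.982) and Nid1 (0.977) for Bdnf 1422168_a_at. For Ntrk2 1458622_at they were Uspl1 (0.991) and Fem1b (0.990), and for Vgf Adar (0.993) and Ldb2 (0.993). The candidates numbered 9390, 9567 and 663 probe sets, all 6 arrays share 2 hybridization dates, and such values are the extremes of many, so they are given as a description only.

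Opposite calls within a gene were not limited to Creb1 and Cbl. Of 5066 genes with at least 2 tested probe sets, 98 (1.93%) had 1 probe set called higher and another called lower on the later date. Ntrk2 was not among them in the fit reported, but joined them under 3 alternatives, in which 1446712_at was called lower while 1435305_at stayed called higher. These were quantile normalization (log2 fold change of 1446712_at -0.20, adjusted p = 0.0399), no filter (-0.25, 0.0478) and trend and robust settings (-0.25, 0.0403).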
